A study of Mus musculus with 6 samples.

Results

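The nuclear genes of oxidative phosphorylation were followed in YUMM3.3 melanomas of C57BL/6 mice that received rigosertib (RGS) or vehicle. The members are the protein-coding genes outside the mitochondrial chromosome whose names begin with Ndufa, Ndufb, Ndufc, Ndufs, Ndufv, Uqcr, Cox4 to Cox8 or Atp5, or are Sdha, Sdhb, Sdhc or Sdhd. The rule uses names and positions only, and it found 93 of the 40166 genes in the count table, under 92 names. They were grouped by respiratory complex into 45 for complex I, 4 for complex II, 8 for complex III, 18 for complex IV and 18 for complex V. Of the 93, 87 passed the filter on low counts, under which a gene needed a median of 5 counts or more in either group.

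Bulk RNA was sequenced from 6 tumors, each from YUMM3.3 cells injected under the skin. RGS, a small molecule described as a RAS mimetic, was given by oral gavage at 300 mg/kg to the mice of 3 tumors, and water (H2O) as vehicle, 0 mg/kg of the drug, to those of the other 3, and the tumors were taken after 17 days. YUMM3.3 is a cultured BRAF-mutant mouse melanoma line, so the tumor cells of all 6 samples come from 1 source, and the labels give neither age nor sex of the mice nor say whether each tumor is from a mouse of its own, so p-values measure only the spread between these samples. Tumors are called by the number in their labels, vehicle 7, 8 and 9 and RGS 10, 11 and 12, and the numbers carry no order.

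Oxidative phosphorylation takes place in the inner mitochondrial membrane. Complexes I and II pass electrons from NADH and succinate to ubiquinone, complex III passes them on to cytochrome c and complex IV to oxygen, while complexes I, III and IV pump protons. Complex V, the ATP synthase, lets the protons flow back and makes ATP. Most subunits are encoded in the nucleus and imported, and a small set is encoded by the mitochondrial genome, so that complexes I, III, IV and V are built from the products of both genomes.

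The libraries held between 13837932 and 32555494 counts. The 3 vehicle libraries were the deepest 3 of the 6, so that treatment and depth are confounded and cannot be told apart. A count of 3 corresponded to between 0.0856 and 0.226 CPM, the counts scaled to library size with edgeR's TMM factors. Markers of the labelled tissue were largely missing. Of 7 melanocyte genes, Mlana, Tyr and Dct had no count in any tumor, and the list summed to between 4.94 and 7.68 CPM with vehicle and between 4.53 and 10.5 CPM with RGS. Of 10 leukocyte genes, Ptprc, Cd3e, Cd8a, Adgre1 and Itgax had no count, while Laptm5 and Cd53 were higher in RGS tumors, and the list summed to between 245.5 and 313 CPM with vehicle and between 1007 and 1096 CPM with RGS. Of 9 pericyte and smooth muscle genes, all 5 tested were called: Rgs5 (8.25 on the log2 scale) and Des were higher, and Acta2, Pdgfrb and Notch3 were lower, while Kcnj8, Abcc9 and Higd1b had no count. That list summed to between 109.9 and 123 CPM with vehicle and between 396 and 455 CPM with RGS. Of 3 tested endothelial genes, Cdh5 was higher (3.47 on the log2 scale). Of 5 tested fibroblast genes 3 were lower and 1 higher with RGS, and among brown fat genes Ucp1, Cidea and Plin1 had no count. The paper describes these bulk samples as holding tumor, stromal and immune cells, and why such markers had no count was not tested. In bulk tissue, fewer cells of a type and less RNA per cell cannot be told apart.

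Most members did not pass the test between RGS and vehicle, and with all 6 tumors the share that was lower was near that of all genes. Of the 87 members tested, 14 were lower with RGS and 3 were higher, taking an adjusted p of 0.05 as the threshold (edgeR's quasi-likelihood test, Benjamini-Hochberg over 15355 genes), and 70 did not pass. The 14 lower members are 16.1% of those tested, against 16.5% of all tested genes that were lower. They include Cox6a2, which passed the filter only through its vehicle counts. The 3 higher members are 3.45%, against 16.3% of all tested genes that were higher, and 32.8% of all genes were called in either direction. The median log2 fold change of the members was -0.09, beside -0.05 for all tested genes. In 12 members the highest RGS tumor lay below the lowest vehicle tumor (13.8%, against 24% of all genes), and in 6 the lowest RGS tumor lay above the highest vehicle tumor (6.90%, against 21.7%). At an unadjusted p under 0.05 there were 30 of the 87 members in either direction. The share of all genes at that threshold was not counted, and it cannot be below the 32.8% called after adjustment.

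Single tumors set these counts. Without vehicle 7, 27 members were lower, 31.4% against 16.002% of all genes in that fit. In the same fit 3 were higher (3.49% against 16.9%). Without vehicle 9, 8 were lower and 8 higher, 9.20% each, against 12.4% and 12.3% of all genes. Without RGS 10, 8 were lower (9.20% against 13.3%) and 4 higher (4.60% against 12.9%). Without vehicle 8, 10 were lower (11.6% against 10.7% of all genes) and 1 higher (1.16% against 11.04%). With RGS 11 left out, 11 were lower (12.6% against 13.5%) and 3 higher (3.45% against 12.4%). With RGS 12 left out, 15 were lower (17.2% against 13.6%) and 1 higher (1.15% against 12.1%). With limma's voom 26 members were lower (29.9% against 22.2% of all genes) and 5 higher (5.75% against 22.2%). The split also moved with the scaling. With the library size alone 22 were lower (25.3% against 20.5% of all genes) and 1 higher (1.15% against 12.2%). Under that scaling Cox8a and Atp5d did not pass. After an offset for gene length 15 were lower (17.2% against 17.7%) and 12 higher (13.8% against 17.6%). After an offset for GC content 15 were lower (17.2% against 14.4%) and 1 higher (1.15% against 15.2%). Under the GC offset Ndufa4, Uqcrc2, Uqcrfs1, Cox8a, Atp5d and Atp5f1 did not pass. Scaled to the median of the members themselves, 2 remained past the threshold, Cox6a2 and Atp5e, both lower (2.30% against 5.46% of all genes). None was higher, against 6.22% of all genes. Cox6a2 had no count in any RGS tumor and met the filter of the main fit only through its vehicle counts, so its call is a description only. Atp5g2 did not pass without RGS 10, and other calls that a single tumor decided are given with the gene.

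**Figure D1:**
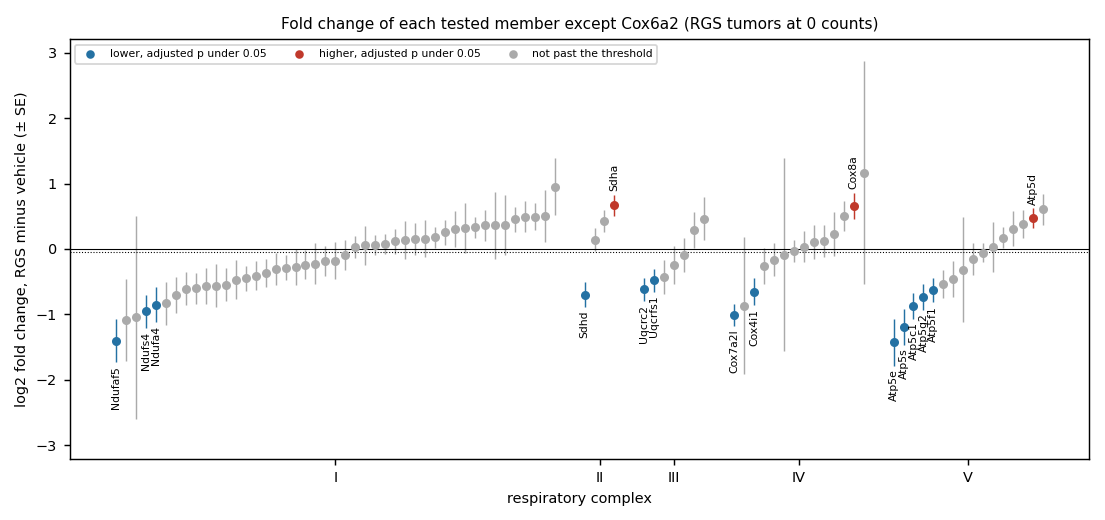
Log2 fold change of RGS over vehicle with its standard error for 86 tested members, ordered within each complex (x axis), with the median of all tested genes as a dotted line. Members past the threshold are named: 13 of those drawn lie below 0 and 3 above, and Cox6a2, whose RGS tumors had no count, is left out.

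The summed level of the members shows the spread among tumors. Over all 93 genes it was 4938 CPM in vehicle 7, 6574 in vehicle 8 and 7474 in vehicle 9, and 5047, 5567 and 6382 CPM in RGS 10, 11 and 12. The means were 6329 ± 1286 (SD, n = 3) with vehicle and 5665 ± 673 with RGS, and the groups overlapped. These sums are between 0.493% and 0.763% of all counts of a tumor.

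By complex, the sum for complex I was 1446, 1971 and 2308 CPM in vehicle 7, 8 and 9 and 1563, 1783 and 2049 CPM in RGS 10, 11 and 12. For complex III, which takes electrons from ubiquinol, it was 388, 566 and 680.0 CPM with vehicle and 349.9, 385 and 487 CPM with RGS, so that 2 of the RGS tumors lay below every vehicle tumor. For complex IV, cytochrome c oxidase, it was 744, 1091 and 1305 CPM with vehicle and 713, 733 and 984 CPM with RGS, with the same arrangement. For complex V it was 1886, 2395 and 2598 CPM with vehicle and 1878, 2059 and 2217 CPM with RGS, the lowest vehicle tumor lying just above the lowest RGS tumor. Complex II, succinate dehydrogenase, had 475, 551 and 582 CPM with vehicle and 543, 607 and 645 CPM with RGS, and it was the complex with the higher mean in RGS tumors on this scale. When each gene was first divided by the length in the table, the log2 ratio of RGS to vehicle was -0.06 for complex I, -0.08 for complex II, -0.31 for complex III, -0.25 for complex IV and -0.19 for complex V, so the sign for complex II depends on the scale, being 0.16 without division by length and 0.05 with the length of the principal transcript (the APPRIS choice). The groups overlapped in all 5 complexes on the CPM scale.

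**Figure D2:**
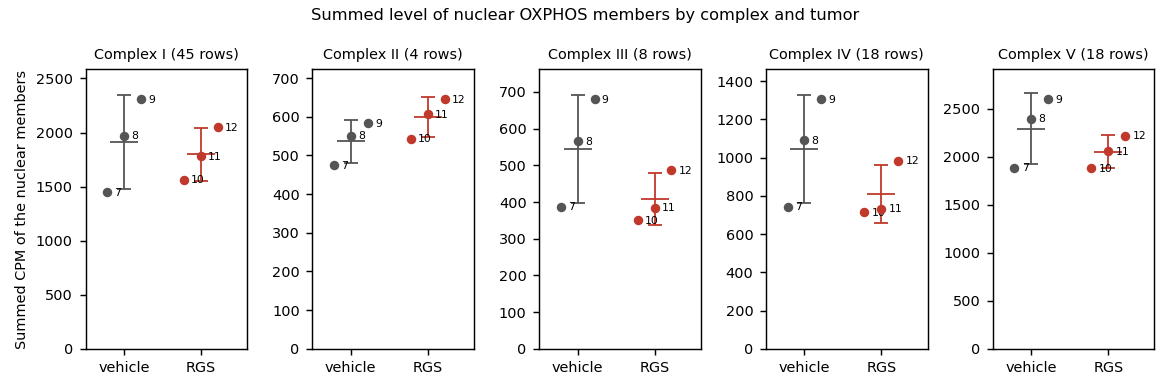
Summed CPM of the nuclear members of each complex (y axis, from 0) in each tumor, labelled by its number, with the group mean and SD (n = 3) as bars. Vehicle 7 is the lowest and vehicle 9 the highest vehicle tumor in every complex, and RGS 12 is the highest RGS tumor in every complex.

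Within the vehicle group the members moved together. Vehicle 7 held the lowest of the 3 vehicle values in 79 of the 87 members (90.8%), against 36.7% of all tested genes, and vehicle 9 held the highest in 72 (82.8%), against 34.2%. The median member was 0.86 higher on the log2 scale in vehicle 9 than in vehicle 7, while the median of all tested genes was 0.04 lower. In the RGS group, RGS 12 held the highest value in 64 members (73.6%), against 33.3% of all genes, and the median member was 0.42 higher on the log2 scale in RGS 12 than in RGS 10. The spread between vehicle tumors was a median coefficient of variation of 29.8% for members and 21.5% for all tested genes, and between RGS tumors it was 21.3% and 21.6%. Over the 6 tumors, vehicle 9 was the highest in 44 members and RGS 12 in 30, and vehicle 7 was the lowest in 41 and RGS 10 in 24.

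Several measures were set beside this order. Cytosolic ribosomal protein genes took 5.64%, 8.37% and 10.2% of all counts in vehicle 7, 8 and 9 and 3.14%, 3.29% and 3.66% in RGS 10, 11 and 12, which is the order of the summed member levels inside each group, though not between the groups. Library depth fell from vehicle 7 (32555494 counts) to vehicle 8 (26652104) and vehicle 9 (22793087). In the RGS group, RGS 10 was the deepest (21617368), but RGS 11 (13837932) and not RGS 12 (17768758) was the shallowest. The members are short genes, with a median length of 1569 bases against 3877 for all tested genes, and 39 of the 87 are in the shortest eighth of tested genes. Over that eighth as a whole the log2 fold change was -0.30 at the median, and vehicle 9 exceeded vehicle 7 by 0.62 on the log2 scale, against 0.03 and -0.33 in the longest eighth. The 39 members in the shortest eighth had a median log2 fold change of -0.09. In the next eighth the 24 members were at -0.21 and all its genes at -0.08. By GC content, the median over all genes was -0.44 in the lowest eighth and 0.33 in the highest. The members' median GC content was 50.1% against 49.8% for all. With ribosomal protein genes left out of the fit there were 16 lower (18.4% against 16.6% of all genes) and 3 higher members (3.45% against 16.5%). With libraries thinned to the depth of the smallest there were 15 lower (17.4% against 17.4%) and 4 higher (4.65% against 17.2%).

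**Figure D3:**
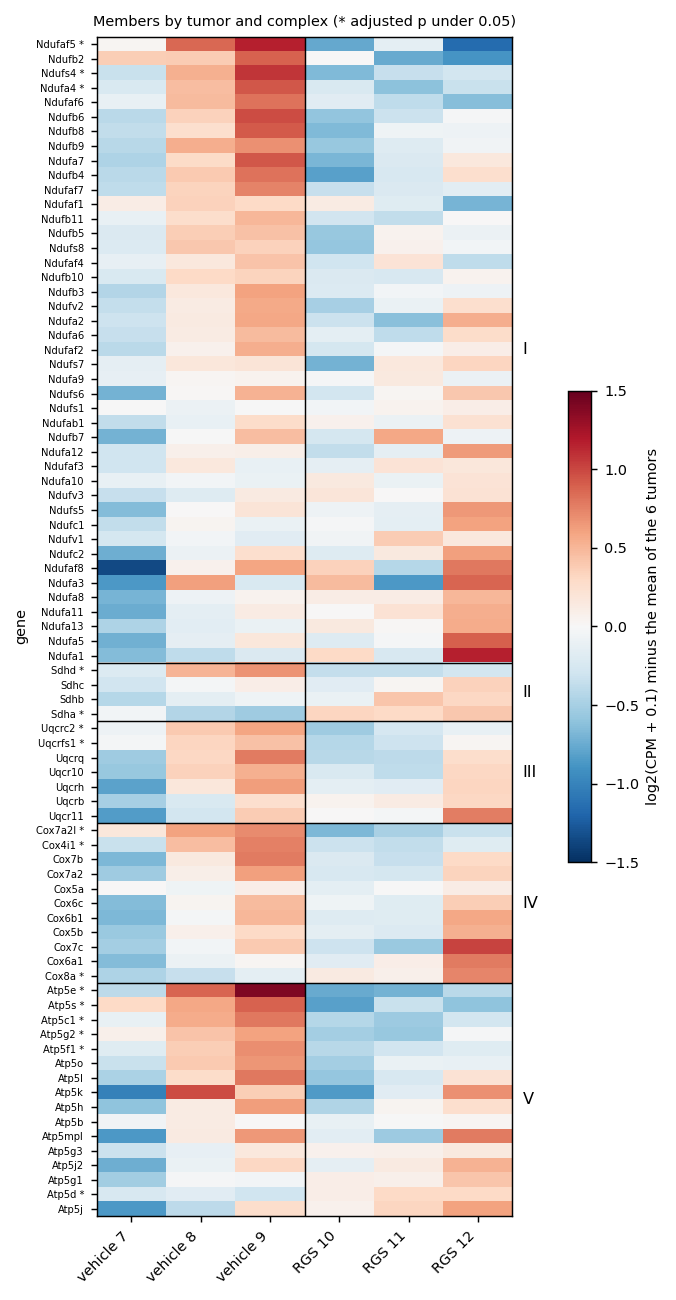
Level of 81 members in each tumor (columns), as log2(CPM + 0.1) minus the gene's mean over the 6 tumors, by complex I to V (5 members with group means summing to under 2 CPM and 1 not reported on its own are left out, and colors end at 1.5). Vehicle 7 is mostly blue (low) and vehicle 9 mostly red (high), and RGS 12 is red in most members at the foot of each complex.

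In complex I, 3 of 45 members were lower and none was higher with edgeR, a called share of 6.67% beside 32.8% of all genes. The lower count was 13 without vehicle 7 and also 13 with voom, and none was higher in either fit, a called share of 28.9% in each. With voom, 22.2% of all genes were lower and 22.2% higher. Those shares of all genes were 16.002% and 16.9% without vehicle 7. None of 5 core subunits examined, from the part that holds the flavin, the iron-sulfur clusters and the quinone site, passed the test, and none had an unadjusted p under 0.05 with edgeR. DESeq2 called 0 of them and voom 1, Ndufs8. Ndufs1, the largest iron-sulfur subunit, was at 84.7, 79.9 and 84.6 CPM in the vehicle tumors and 82.5, 88.4 and 91.2 CPM in the RGS tumors, overlapping values with a log2 fold change of 0.07 (adjusted p = 0.759). Ndufv1, which binds NADH and the flavin, was at 82.5, 96.8 and 88.1 CPM with vehicle and 96.0, 129 and 111 CPM with RGS (log2 fold change 0.33 ± 0.16 SE, adjusted p = 0.132). Ndufs7, Ndufs8 and Ndufv2, also of the core, had log2 fold changes between -0.36 and -0.09, with adjusted p from 0.197 to 0.788, though Ndufs8 passed, lower, in 3 of 21 other fits (voom, the GC offset and without vehicle 7).

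The accessory subunit Ndufs4 (chr13:114287795-114388258, GRCm38), which stabilises the NADH-oxidising arm and whose loss causes a Leigh-like disease, was lower in RGS tumors. It was at 47.1, 86.0 and 125 CPM in vehicle 7, 8 and 9 and at 37.5, 46.9 and 49.1 CPM in RGS 10, 11 and 12, with a log2 fold change of -0.95 ± 0.25 (adjusted p = 0.00724). Vehicle 7 fell within the range of the RGS tumors, and without vehicle 9 or without RGS 10 the gene did not pass. Ndufa4, named as a complex I subunit but found to sit in complex IV, was at 17.5, 28.4 and 39.3 CPM with vehicle and 17.6, 13.3 and 16.3 CPM with RGS (-0.85 ± 0.27, adjusted p = 0.0213), again with vehicle 7 inside the RGS range. Its fold change did not pass without vehicle 8, vehicle 9 or RGS 11.

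The accessory subunits can be read by name class. Of the 10 Ndufb genes, which belong to the distal part of the membrane arm, 9 had a log2 fold change below 0 and their median was -0.50. Of the 15 Ndufa genes, 10 were above 0 and their median was 0.15. None of the Ndufb genes and 1 Ndufa gene, Ndufa4, passed the test, beside 16.5% of all tested genes lower and 16.3% higher. The difference between the classes was not tested. At an unadjusted p under 0.05 there were 4 Ndufb genes with edgeR, and after adjustment DESeq2 called 0 of the 10 and voom 6. In single tumors the Ndufb genes summed to 274, 429 and 539 CPM with vehicle and 249, 314 and 336 CPM with RGS, and the Ndufa genes to 445, 592 and 686 CPM with vehicle and 575, 559 and 736 CPM with RGS, and in both classes the groups overlapped.

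The rule also takes 8 Ndufaf genes, which encode assembly factors and not subunits. Ndufaf5 (chr2:140170649-140203689), which hydroxylates an arginine of the core subunit NDUFS7, had the largest fall of complex I. It was at 13.0, 23.2 and 28.5 CPM with vehicle and 7.43, 11.5 and 5.63 CPM with RGS, with no overlap (-1.40 ± 0.33, adjusted p = 0.00284). Ndufaf6 was also lower in every RGS tumor than in any vehicle tumor, at 8.68, 13.0 and 16.6 CPM against 8.33, 7.16 and 6.00 CPM, and did not pass (-0.83 ± 0.33, adjusted p = 0.0612), though it did in 4 of 21 other fits. Ndufaf7, a methyltransferase, had a log2 fold change of -0.54 (adjusted p = 0.1003) and passed in 3 of 21 other fits. Ndufaf1, Ndufaf2 and Ndufaf4 lay between -0.47 and -0.18, and Ndufaf3 and Ndufaf8, the partner of Ndufaf5, at 0.16 and 0.36, with adjusted p of 0.247 and above.

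Other assembly genes of complex I were counted from a list of 18 that includes these 8. On it 5 were lower with edgeR (27.8%, beside 16.5% of all tested genes) and none was higher (beside 16.3%). The median log2 fold change was -0.39. Tmem126a fell from 30.7, 51.0 and 58.4 CPM in the vehicle tumors to 14.01, 15.1 and 21.4 CPM in the RGS tumors (-1.47 ± 0.25, edgeR adjusted p = 1.77e-04). Nubpl, which delivers iron-sulfur clusters, was at 14.3, 15.3 and 9.80 CPM with vehicle and 5.54, 1.28 and 6.73 CPM with RGS (-1.53 ± 0.45, adjusted p = 0.0131). The remaining pair that fell were Foxred1 and Tmem70. Tmem70 was counted on this list only, and not among the assembly genes listed for complex V.

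In complex II, 1 of 4 subunits fell (25%, beside 16.5% of all tested genes) and 1 rose (25%, beside 16.3%). Sdha (chr13:74322254-74350280), the flavoprotein that oxidises succinate, was at 163, 125 and 116 CPM in vehicle 7, 8 and 9 and at 211, 207 and 223 CPM in RGS 10, 11 and 12 (0.67 ± 0.16, adjusted p = 0.00380). Vehicle 7, low for most members, was the highest vehicle tumor here. Sdhd (chr9:50596357-50603812), a membrane anchor of the same enzyme, was at 118, 194 and 217 CPM with vehicle and at 106, 107 and 113 CPM with RGS (-0.70 ± 0.19, adjusted p = 0.00833). Neither gene's groups overlapped. The iron-sulfur subunit Sdhb was at 97.7, 119 and 125 CPM with vehicle and 122, 175 and 163 CPM with RGS (0.43 ± 0.17, adjusted p = 0.0607). It passed, higher, in 5 of 21 other fits: DESeq2, voom, the length offset, without vehicle 9 and without RGS 10. Sdhc, the other anchor, had a log2 fold change of 0.14 (adjusted p = 0.557).

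In complex III, 2 of 7 tested members fell, Uqcrc2 and Uqcrfs1 (28.6%, beside 16.5% of all tested genes), and none rose (beside 16.3%). Uqcrc2 (chr7:120635176-120659524), a core protein of the matrix side, was at 192, 266 and 306 CPM with vehicle and 140.1, 171 and 187 CPM with RGS, with no overlap (-0.62 ± 0.18, adjusted p = 0.0125). Uqcrfs1, the Rieske iron-sulfur protein, was at 97.2, 124 and 134 CPM with vehicle and 73.8, 79.8 and 101 CPM with RGS (-0.48 ± 0.18, adjusted p = 0.0428), and RGS 12 lay above vehicle 7. Uqcrc2 did not pass without vehicle 8, vehicle 9 or RGS 10, and Uqcrfs1 did not pass when any 1 of these or RGS 11 was left out. The 5 small subunits had log2 fold changes between -0.43 and 0.47 and none passed. The table lists Uqcrc1, the other core protein, only on the scaffold KQ030490.1, where it had no count in any tumor, and its level was not analysed here.

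Cox7a2l (chr17:83501919-83514333), described as a link between complexes III and IV in supercomplexes and not a core subunit, had the smallest adjusted p of all members. Supercomplexes were not measured, and which form of this gene the mouse strain carries was not examined. It was at 252, 342 and 368 CPM in vehicle 7, 8 and 9 and at 141, 161 and 178 CPM in RGS 10, 11 and 12 (-1.005 ± 0.17, adjusted p = 1.60e-04), and its groups did not overlap. It passed in each fit that left out 1 tumor. A copy elsewhere in the genome matches 31.2% of its principal transcript at 97% identity or more, so reads of that stretch could have been lost or shared.

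In the enzyme itself, the regulatory subunit Cox4i1 (chr8:120668222-120674207) was at 207, 359.8 and 441 CPM with vehicle and at 208, 202 and 229 CPM with RGS (-0.66 ± 0.21, adjusted p = 0.0199). Vehicle 7 fell inside the RGS range, and the gene did not pass without vehicle 8, vehicle 9, RGS 10 or RGS 11. Cox8a (chr19:7215158-7217616), the common form of subunit VIII, rose from 37.1, 40.2 and 46.2 CPM to 56.0, 53.7 and 84.9 CPM with no overlap (0.66 ± 0.20, adjusted p = 0.0162), and did not pass without vehicle 8 or without RGS 12. Cox5a, which did not pass, was at 59.1, 56.6 and 63.4 CPM with vehicle and 53.3, 59.1 and 63.6 CPM with RGS (-0.03 ± 0.17, adjusted p = 0.924). Cox5b, Cox6a1, Cox6b1, Cox7a2 and Cox7b had log2 fold changes between -0.26 and 0.51, with adjusted p from 0.0943 to 0.787, and Cox6a1 passed, higher, in 3 of 21 other fits.

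Complex IV has pairs of isoforms, a common form and a form restricted to some tissues, and the restricted forms were near the limit of detection. Cox6a2 (chr7:128205435-128206387), the form of heart and skeletal muscle, had 42, 44 and 64 counts in vehicle 7, 8 and 9 and no count in any RGS tumor. From a vehicle mean of 1.84 ± 0.81 CPM (SD, n = 3), it was at least 8.14-fold lower with RGS, taking a floor of 3 counts in the shallowest RGS library. From the lowest vehicle tumor it was at least 5.30-fold lower. The gene passed the filter on low counts only through the vehicle group, where it is high. Its edgeR adjusted p of 0.00182 is therefore given as a description only. Among 10 skeletal muscle markers, Ckm, Myh1, Myh2 and Myh4 had no count in any tumor, none of the 4 tested passed with edgeR, and the list summed to between 9.65 and 14.3 CPM with vehicle and between 6.03 and 10.1 CPM with RGS. Cox7a1, another muscle form, was at 0.514, 0.356 and 0.688 CPM with vehicle and at 1.37, 0 and 0.0612 CPM with RGS, and its log2 fold change of -0.08 had a standard error of 1.47. Cox4i2, the form induced by low oxygen in the lung, was at 0.285 CPM or less in 5 tumors and at 1.05 CPM in RGS 11.

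Per kilobase of the principal transcript, the restricted form was a small share of each pair. Cox6a2 made up 2.18%, 1.95% and 3.11% of the Cox6a pair in the vehicle tumors, Cox6b2 between 2.13% and 3.30% of the Cox6b pair with vehicle and between 0.450% and 2.95% with RGS, and Cox4i2 at most 0.542% of the Cox4 pair in any tumor. Ndufa4l2, a form induced by hypoxia, was at most 2.74% of its pair with Ndufa4, and Cox7a1 between 0% and 7.43% of its pair with Cox7a2. Cox7b2, Cox8b and Cox8c had no count in any tumor, which allows up to 3 counts in each.

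Complex V had 5 of 16 tested members lower (31.2%, beside 16.5% of all tested genes) and 1 higher (6.25%, beside 16.3%). The changes were unequal among subunits of the same part of the enzyme. The central stalk is built from the γ, δ and ε subunits. Atp5c1 (γ, chr2:10056016-10080510) fell, at 168, 268 and 314 CPM with vehicle and 136, 125 and 150.0 CPM with RGS (-0.87 ± 0.19, adjusted p = 0.00189). Atp5e (ε, chr2:174461072-174464105) fell as well, at 8.71, 20.9 and 30.2 CPM with vehicle and 6.72, 6.93 and 8.57 CPM with RGS (-1.43 ± 0.36, adjusted p = 0.00493). Atp5d (δ, chr10:80138632-80145818) rose, at 145, 152 and 139.7 CPM with vehicle and 184, 211 and 211 CPM with RGS (0.47 ± 0.15, adjusted p = 0.0202). In none of these 3 did the groups overlap, though vehicle 7 lay just above the highest RGS tumor for Atp5e. The rise of Atp5d did not pass without vehicle 8, vehicle 9, RGS 11 or RGS 12, nor with the library size alone, where it was 0.33 on the log2 scale, nor with the offset for GC content, where it was 0.15.

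The catalytic β subunit, Atp5b, was the most abundant member and did not change detectably. It was at 928, 1048 and 968 CPM with vehicle and at 885, 959 and 980.2 CPM with RGS, a log2 fold change of -0.06 ± 0.14 (adjusted p = 0.790). The α subunit, Atp5a1, could not be followed: its row on chromosome 18 held at most 1 count in any tumor and its row on the scaffold MG3700_PATCH none. Atp5f1 (subunit b of the peripheral stalk, chr3:105942698-105960099) was at 174, 253 and 319 CPM with vehicle and 147, 162 and 173 CPM with RGS (-0.63 ± 0.19, adjusted p = 0.0150), with vehicle 7 just above the highest RGS tumor. Copies match 43.4% of its principal transcript, and it did not pass without vehicle 9 or without RGS 10.

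Subunit c, which forms the rotating ring, is encoded by 3 genes that give the same mature protein. Atp5g2 (chr15:102662864-102672352) was at 72.0, 91.9 and 104 CPM with vehicle and 47.8, 45.8 and 67.3 CPM with RGS (-0.73 ± 0.19, adjusted p = 0.00658). Atp5g1 was at 21.8, 31.0 and 30.5 CPM with vehicle and 33.5, 33.0 and 41.8 CPM with RGS (0.38 ± 0.21, adjusted p = 0.176), and Atp5g3 at 137, 158 and 192 CPM with vehicle and 178, 180.1 and 189 CPM with RGS (0.17 ± 0.16, adjusted p = 0.445). As a share of the counts of the 3 genes, Atp5g2 was 31.9% ± 0.789 (SD, n = 3) with vehicle and 19.6% ± 2.65 with RGS, with no overlap, and Atp5g3 was 58.1% ± 1.70 and 67.2% ± 3.36. Copies match 88.2% of the principal transcript of Atp5g2 at 97% identity or more, the largest part for any member, so its counts are uncertain. Atp5s, a regulatory coupling factor and not a structural subunit, was at 15.7, 19.1 and 23.5 CPM with vehicle and 7.20, 10.1 and 8.32 CPM with RGS (-1.19 ± 0.28, adjusted p = 0.00275).

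**Figure D4:**
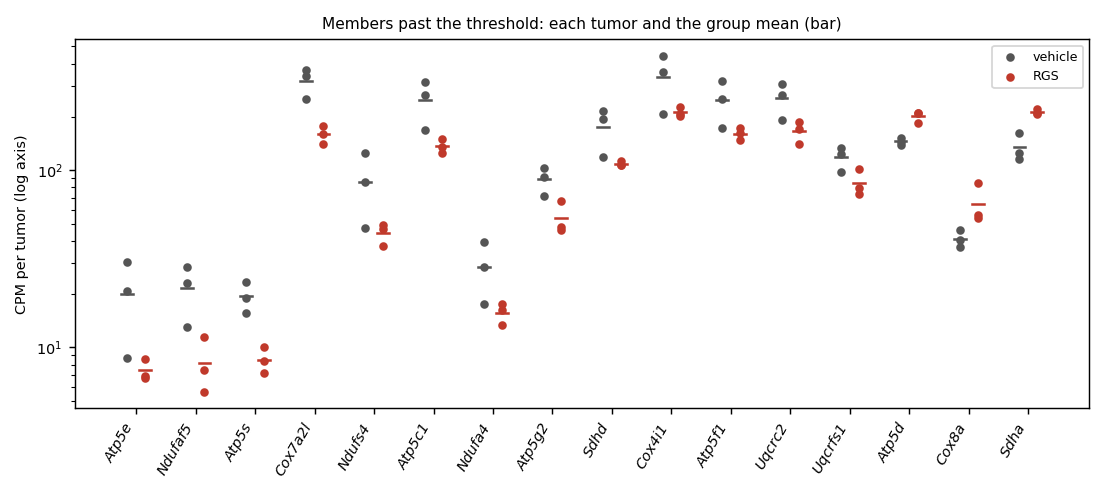
CPM in each tumor (points, log axis) and group mean (short lines) of the 16 members past the threshold other than Cox6a2, ordered by fold change. In Ndufs4, Ndufa4, Cox4i1 and Uqcrfs1 the groups overlap, and in the other 12 they do not.

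Compared between genes on one scale, CPM per kilobase of the principal transcript, the vehicle level of the median tested member was 31.2 for complex I, 73.1 for complex II, 46.4 for complex III, 56.5 for complex IV and 83.9 for complex V. In RGS tumors the medians were 32.2, 80.9, 39.1, 50.4 and 77.0. Within a complex the levels spanned a wide range, from 0.221 to 439 in complex IV and from 5.83 to 512 in complex V, where Atp5b had the highest level of all members. Within complex II, Sdhd was at 143 ± 41.9, Sdhb at 99.8 ± 12.7, Sdha at 46.4 ± 8.66 and Sdhc at 35.0 ± 4.61 (SD, n = 3) with vehicle, and in RGS tumors Sdhb, at 135 ± 24.2, and not Sdhd, at 88.2 ± 2.86, was the highest. These levels depend on which transcript length is used and on copies: 13 tested members have copies over more than 25% of the principal transcript. Of these 13, 3 were lower and none higher with edgeR (Cox7a2l, Atp5f1 and Atp5g2), beside 16.5% and 16.3% of all tested genes.

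The subunits encoded by the mitochondrial genome were higher. Of 12 tested, 11 were higher in RGS tumors (median log2 fold change 1.69), and for each CPM of nuclear members there were 3.83, 3.06 and 3.92 CPM of mitochondrial subunits in the vehicle tumors and 10.5, 12.5 and 12.8 CPM in the RGS tumors. This ratio is not a level of all 13 subunits: mt-Co1 held between 43.1% and 59.4% of the mitochondrial sum, and 6 subunits were under 20 CPM in every tumor. How reads that map to several places were counted is not given in the sources used here, and its part in these levels was not tested.

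Genes around the respiratory chain were counted on further lists, to be read beside the 16.5% of all tested genes that were lower and the 16.3% that were higher. Of 4 assembly genes of complex II and 6 of complex III none passed with edgeR, with 0 and 1 at an unadjusted p under 0.05, where the share of all genes was not counted. Of 21 for complex IV, Coa3 and Coa6 were lower and Cox10, which makes heme O, was higher, and of 4 for complex V, Atpaf1, a chaperone of the β subunit, was lower (-1.20 ± 0.28, adjusted p = 0.00285). Of 20 tested regulators, 6 were lower and 2 higher: Tfb1m (-1.72) and Myc (-1.15) fell most, and Ppard (1.83) and Tfe3 (0.80) rose. Gabpb1, a partner of the ETS factor GABPA, was also lower (-0.74), while Nrf1 (-0.12, adjusted p = 0.664) and Gabpa (-0.25, adjusted p = 0.433) did not pass. Of 17 genes of the tricarboxylic acid cycle and of pyruvate dehydrogenase, 3 fell, including Dld (-1.18), and 2 rose, including Mdh2 (0.90). Of 20 genes of mitochondrial import, chaperones and membranes, 10 fell, led by Hspe1 (-1.37) and Tomm20 (-1.26), and Tomm40 rose (0.80), with a median of -0.39. Of 12 hypoxia-response genes, 6 fell, led by Adm (-2.91) and Car9 (-2.18), and Slc2a1 rose (0.51). Of 5 subunits or carriers whose names the rule does not take, Higd2a rose (0.97) and Cyc1, Cycs, Atpif1 and Usmg5 did not pass.

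Promoters were examined for what the members share in sequence. RefSeq windows (GRCm38.p6, 250 bases before the start to 50 after) matched 73 of the 92 names. The 6 shown are the 3 higher members and the 3 lower members with the smallest adjusted p that had a window. They are printed on the strand of the gene, with capitals marking matches on either strand to the motif letters given after them.
Sdha (higher), chr13:74350191-74350490, minus strand: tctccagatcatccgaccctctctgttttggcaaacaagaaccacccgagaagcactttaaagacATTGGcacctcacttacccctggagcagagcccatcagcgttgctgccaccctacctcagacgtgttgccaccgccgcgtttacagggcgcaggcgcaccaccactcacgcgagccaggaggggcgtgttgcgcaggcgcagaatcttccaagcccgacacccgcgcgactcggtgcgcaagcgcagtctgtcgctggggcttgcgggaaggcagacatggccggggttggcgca
Cox8a (higher), chr19:7217567-7217866, minus strand: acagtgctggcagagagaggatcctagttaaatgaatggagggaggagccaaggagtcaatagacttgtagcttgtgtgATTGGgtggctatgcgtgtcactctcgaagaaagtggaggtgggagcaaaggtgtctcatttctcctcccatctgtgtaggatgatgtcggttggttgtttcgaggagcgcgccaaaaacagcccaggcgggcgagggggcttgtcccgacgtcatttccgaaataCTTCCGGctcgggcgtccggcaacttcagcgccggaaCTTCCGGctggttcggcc
Atp5d (higher), chr10:80142025-80142324, plus strand: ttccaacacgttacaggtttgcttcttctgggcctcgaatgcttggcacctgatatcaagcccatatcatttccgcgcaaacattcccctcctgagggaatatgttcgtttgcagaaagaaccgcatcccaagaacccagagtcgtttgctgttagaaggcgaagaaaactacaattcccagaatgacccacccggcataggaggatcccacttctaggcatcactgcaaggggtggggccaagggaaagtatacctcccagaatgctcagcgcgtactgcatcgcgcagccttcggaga
Cox7a2l (lower), chr17:83514284-83514583, minus strand: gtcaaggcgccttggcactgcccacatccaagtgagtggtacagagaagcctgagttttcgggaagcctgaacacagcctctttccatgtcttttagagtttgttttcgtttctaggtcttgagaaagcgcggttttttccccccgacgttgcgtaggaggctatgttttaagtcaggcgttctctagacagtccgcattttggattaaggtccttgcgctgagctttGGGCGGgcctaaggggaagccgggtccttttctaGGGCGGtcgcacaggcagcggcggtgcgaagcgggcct
Atp5c1 (lower), chr2:10080461-10080760, minus strand: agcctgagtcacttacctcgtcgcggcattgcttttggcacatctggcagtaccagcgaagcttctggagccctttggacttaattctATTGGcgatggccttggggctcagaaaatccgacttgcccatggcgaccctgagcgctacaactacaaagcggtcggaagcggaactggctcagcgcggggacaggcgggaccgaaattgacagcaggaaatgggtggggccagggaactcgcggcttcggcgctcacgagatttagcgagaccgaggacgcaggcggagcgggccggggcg
Ndufaf5 (lower), chr2:140170396-140170695, plus strand: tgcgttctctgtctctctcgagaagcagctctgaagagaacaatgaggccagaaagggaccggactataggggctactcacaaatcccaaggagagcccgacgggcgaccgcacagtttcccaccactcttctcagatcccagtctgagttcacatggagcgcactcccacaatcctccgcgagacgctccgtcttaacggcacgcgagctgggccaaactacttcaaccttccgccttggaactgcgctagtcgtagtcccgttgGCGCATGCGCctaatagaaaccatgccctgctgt

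The letters searched were GCATGCGC for NRF1, CCGGAAG for ETS factors such as GABP, AAGATGGC for YY1, TGACGTCA for CREB, CACGTG for the E-box, AAGGTCA for ERR, GGGCGG for SP1, CCAAT and TATAAA. In these windows, Ndufaf5 holds the NRF1 letters on both strands in overlap, Cox8a holds the ETS letters at 2 places and CCAAT, Cox7a2l holds the SP1 letters at 2 places, Sdha and Atp5c1 each hold CCAAT once, and Atp5d holds none of them.

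Across the members some letters were more frequent than among all 27025 promoters of the same length. The NRF1 letters were in 12 of 73 member windows (16.4%), against 2.80% of all. The YY1 letters were in 9 (12.3%), against 2.88%, the ETS letters in 16 (21.9%), against 9.12%, the ERR letters in 8 (10.96%), against 4.66%, and the CREB letters in 4 (5.48%), against 1.88%. SP1 (43.8% against 35.9%) and CCAAT (45.2% against 37.9%) were closer to the background, the E-box was level with it (6.85% against 7.24%), and TATAAA was less frequent (9.59% against 14.2%). Among the 9 lower members with a window, 2 held the NRF1 letters (Ndufaf5 and Atp5g2), 2 the ETS letters (Atp5e and Sdhd) and 1 the YY1 letters (Ndufs4). Of the 3 higher members, none held the NRF1 or YY1 letters and 1, Cox8a, held the ETS letters. A match is a description of the letters and does not show that a factor binds.

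**Figure D5:**
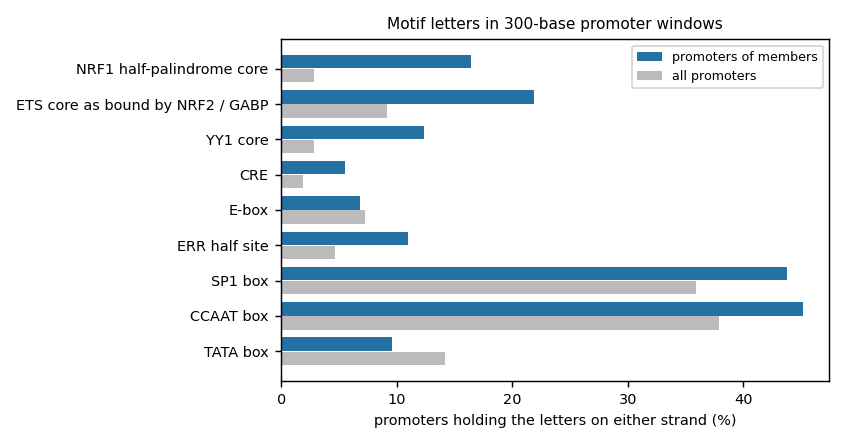
Share of 300-base promoter windows (x axis, %) that hold the letters of each motif on either strand, for 73 members and for all 27025 promoters. The share among members is 16.4% against 2.80% for NRF1, 12.3% against 2.88% for YY1 and 21.9% against 9.12% for ETS.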

How the data were processed

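Tumors kept in RNAlater were sequenced as paired-end reads. Per the labels, the submitters' processing notes name cutadapt 1.18, FastQC 0.11.7, STAR 2.7.1a and featureCounts 1.6.4 with mm10, and what the authors deposited is a table of unnormalized read counts by gene, with gene lengths. The annotation, the strand setting and the treatment of multi-mapping reads are not given in the sources used here. Where copies or overlapping genes exist, counts are uncertain.

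Samples were grouped by the treatment in their labels (3 vehicle, 3 RGS), and the table columns were matched to samples by name. Nothing states whether the tumors are separate litters or batches, and any 2 tumors of a group differed by far more than sampling noise. The test was edgeR 4.0.16 (R 4.3.3): genes with a median of 5 counts or more in either group, TMM factors, quasi-likelihood F test with treatment only, and Benjamini-Hochberg over 15355 genes. The smallest two-sided p of an exact permutation test with 3 against 3 is 0.1. CPM was computed with edgeR on TMM-scaled library sizes, ± is an SD for levels and an SE for log2 fold changes, and "no overlap" means every tumor of a group lies above every tumor of the other. Floors of 3 counts cover counting error only: PCR copies were not identified, and reads may share a molecule. Gene models, principal transcripts (APPRIS) and GC content came from GENCODE M21 (40057 of 40166 identifiers matched without version), and copies were found with blastn (97% identity, 100 bases or more).

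Named genes are the core subunits, isoform pairs and Ndufaf genes, up to 3 called members per direction and complex, members that failed the filter, and at most 2 per direction of each other list. Chosen after their values were seen, and outside this rule, are Atp5f1, Gabpb1, Nrf1, Gabpa, Foxred1, Tmem70, Cyc1, Cycs, Atpif1, Usmg5, mt-Co1 and the cell type markers. The members and lists were chosen with earlier results of these data known, so no p is given for a list or a score over members. The alternatives were other scalings, tests (DESeq2 1.42.0, limma 3.58.1 voom), filters, thresholds, length and GC offsets, thinning, and leaving out each tumor. The procedure was checked on simulated counts. The values of 1 member are not reported here on their own.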

Additional observations from a re-analysis of the deposited data

How the results depend on the processing

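The median log2 fold change of the members moved by less than 0.33 under every alternative run. That value is the pooled SD, within groups, of the tumors' median member level on the log2 scale, and not an error of the fold change. The sign of the median fold change turned after the offset for gene length (0.017), without vehicle 9 (0.09) and when libraries were scaled to the members' own median (0.013). Leaving out 1 tumor gave from -0.38 to 0.09. With the library size alone, the median of all genes went from -0.05 to -0.19, and the members' from -0.09 to -0.24. The number of lower members, 14 with edgeR, was 22 with the library size alone, 26 with voom, 2 when scaled to the members, 9 at an adjusted p under 0.01 and 5 with a log2 change of at least 1. At these stricter thresholds the share of all genes was not counted. The number of higher members, 3, was 1, 5, 0, 1 and 0 under the same settings, 6 without a filter, 12 with the length offset and 1 with the GC offset. Leaving out 1 tumor gave from 8 to 27 lower and from 1 to 8 higher members. In complex I, 3 lower members became 5 with upper-quartile factors or without ribosomal protein genes, 10 with the library size alone, 13 with voom, 7 without a filter or with the GC offset, 0 when scaled to the members, 1 with a log2 change of at least 1 and from 1 to 13 without 1 tumor, and the count of higher members, 0, became 1 without a filter, 5 with the length offset and from 0 to 3 without 1 tumor. Scaled to the members, lower counts were 0 in complexes II and III and 1 in IV and V, and no member was higher. With a log2 change of at least 1, lower counts were 0 in II and III and 2 in V, and none was higher. In complex II the higher count was 2 with DESeq2, voom or the length offset and from 1 to 2 without 1 tumor. In complex III the lower count was 0 with the GC offset or at an adjusted p under 0.01 and from 0 to 3 without 1 tumor, and 1 was higher with the length offset. The higher counts of complexes IV and V were 0 with the library size alone, the GC offset or an adjusted p under 0.01 and 2 without a filter or with the length offset, and in V also 2 with voom or thinned counts. Without 1 tumor, from 0 to 2 were higher in IV, and from 3 to 7 lower and from 0 to 1 higher in V. Summed without division by length, the log2 ratio of complex II was 0.16 in place of -0.08. The cause of these moves was not tested, except that stricter thresholds can only remove calls.

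Of 17 members past the threshold, Cox6a2 and Atp5e passed in all 21 other fits, and none changed sign. Cox6a2 met the filter of the main fit through its vehicle counts alone. Sign changes touched only named members that did not pass. With the GC offset Cox5a was at 0.24, Ndufv2 at 0.049, Atp5b at 0.0073, Ndufaf4 at 0.095, Cox7b at 0.11, Cox5b at -0.022 and Ndufaf3 at -0.027. With the length offset Cox5a was at 0.017, Cox7a2 at 0.015 and Cox7a1 at 0.30. With the library size alone Ndufs1 was at -0.069, Cox6b1 at -0.031 and Cox5b at -0.020. With voom Cox5a was at 0.016, Cox4i2 at -0.032 and Cox5b at -0.024. Scaled to the members, Cox5a was at 0.053, Atp5b at 0.026 and Cox7a1 at 0.15, and thinned counts gave Cox7a1 0.36. Leaving out 1 tumor gave Cox5a from -0.11 to 0.037, Cox4i2 from -1.63 to 1.73, Ndufs7 from -0.32 to 0.16, Ndufv2 from -0.47 to 0.023, Atp5b from -0.11 to 0.0086, Cox7b from -0.56 to 0.15, Cox7a2 from -0.41 to 0.16, Cox6b1 from -0.22 to 0.44, Sdhc from -0.029 to 0.25, Cox5b from -0.18 to 0.31, Ndufaf2 from -0.39 to 0.093, Cox7a1 from -3.79 to 0.46 and Ndufaf8 from -0.026 to 0.83. The GC offset, the principal transcript length, scaling to the members and the sum without division by length were chosen after seeing the data. Where a group had 2 tumors, the spread was pooled over both groups. No paired analysis was possible because the vehicle and RGS tumors share no replicate number. Depth limits the isoforms under about 1 CPM.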
